A study of Mus musculus with 30 samples.

Results

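The 77 mitochondrial ribosomal protein genes are described here, as measured by RNA sequencing in cultured mouse microglia. Members were all rows of the deposited gene table whose symbol starts with Mrpl or Mrps and a number, and they made up 77 of 13788 genes. Of these, 48 carry an Mrpl and 29 an Mrps symbol. Microglia, the resident macrophages of the brain, were grown as primary cultures from mouse brains and collected by shaking them off. There were 10 groups of 3 libraries. Wild-type (WT) and PD-1 KO cultures were taken at 0 h, and after 2 h or 8 h, either with conditioned medium that contained amyloid-beta or without it. PD-1, encoded by Pdcd1, is an inhibitory receptor best known from T cells, and amyloid-beta is the peptide that forms the plaques of Alzheimer's disease. The labels give neither the age and strain of the mice nor the medium of the untreated cultures. Nor do they tie libraries to animals, and the p-values therefore cover only the spread between these libraries, which may be technical. The series addresses the part of PD-1 in the handling of amyloid by microglia.

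The mitochondrial ribosome translates the few proteins that mitochondrial DNA encodes, all of them subunits of the oxidative phosphorylation complexes. Its RNAs come from mitochondrial DNA, but all of its proteins are encoded in the nucleus, made in the cytosol and imported, so that a large set of nuclear genes has to supply 1 particle. The large subunit (mt-LSU) forms the peptide bond and holds the exit tunnel, and the small subunit (mt-SSU) binds the messenger RNA and decodes it. Some proteins descend from the bacterial ribosome and others were added in the course of mitochondrial evolution. By textbook assignment 50 members belong to the large subunit, Mrps30 and Mrps18a among them despite their names, and 26 to the small subunit. Mrps36 belongs to neither, since its product is a subunit of the 2-oxoglutarate dehydrogenase complex. There were 46 members with a bacterial counterpart and 30 specific to mitochondria. Mrps18a and Mrps18b were counted among the 30, although they are relatives of Mrps18c, which was counted among the 46.

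The promoters of these genes are known for sites of the factors NRF1, GABP (an ETS factor) and YY1, which tie them to other nuclear genes of mitochondria. RefSeq promoter windows (GRCm38.p6) were matched to 68 of the 77 members, some by more than 1 start, giving 74 windows of 300 bases, from 250 before the start to 50 after it. The letters searched, on both strands, were GCGCANGCG for NRF1, CCGGAAG for ETS, AANATGGC for YY1, CACGTG for the E-box and GGGCGG for Sp1. None of these words contains another. The ETS letters were in 33.8% of the member windows, against 16.1% of the windows of genes in the table and 8.86% of all windows. The YY1 letters were in 27.03%, against 7.86% and 6.05%, and the NRF1 letters in 21.6%, against 12.5% and 6.25%. At least 1 of these 3 was in 63.5% of the member windows, against 31.2% of those of genes in the table. The E-box (9.46% against 9.54%) and Sp1 letters (52.7% against 61.5%) were not more frequent than in the genes of the table. These are matches of letters, not measured binding sites.

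Stretches of 4 windows show this, each ending at most 30 bases inside the first exon, with NRF1, ETS and YY1 letters in capitals. Mrpl22 holds an ETS and an NRF1 match, and Mrpl24 a YY1 match on the reverse strand. Mrps6 and Mrps36, the members with the largest differences between the genotypes in each direction, hold none of these 3 in the stretch shown. Of 68 such stretches, of up to 200 bases, 28 hold any of the 3. Mrps6 and Mrps36 hold 4 and 3 matches of the Sp1 letters, left in lower case.
Mrpl22, chr11:58171494-58171690, plus strand: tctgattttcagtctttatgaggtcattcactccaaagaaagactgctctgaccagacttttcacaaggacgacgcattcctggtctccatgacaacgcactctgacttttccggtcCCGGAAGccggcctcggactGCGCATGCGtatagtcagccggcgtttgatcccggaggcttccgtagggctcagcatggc
Mrpl24, chr3:87919374-87919535, plus strand: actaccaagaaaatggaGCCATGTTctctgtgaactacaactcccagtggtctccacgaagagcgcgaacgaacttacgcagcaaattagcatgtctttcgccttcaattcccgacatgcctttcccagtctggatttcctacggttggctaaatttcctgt
Mrps6, chr16:92058166-92058299, plus strand: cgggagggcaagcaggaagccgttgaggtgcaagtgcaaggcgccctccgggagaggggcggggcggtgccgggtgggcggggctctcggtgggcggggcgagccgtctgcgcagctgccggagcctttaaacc
Mrps36, chr13:100744630-100744829, minus strand: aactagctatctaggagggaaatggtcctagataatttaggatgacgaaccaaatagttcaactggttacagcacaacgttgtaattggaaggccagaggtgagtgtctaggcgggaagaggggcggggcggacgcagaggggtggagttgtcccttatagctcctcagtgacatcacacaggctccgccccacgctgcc

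The deposited value, called signal here, is a gene's read count divided by a size factor of its library. All 77 members were well above the floor of 1 in every library, at 70.2 to 769, and all passed the filter on low values. Recovered depth ran from 4227019 to 48509985 reads per library (median 9603082). Pdcd1 went against the labels: it was at 1, the floor, in each of the 15 WT libraries and between 6.02 and 25.3 in each of the 15 with the PD-1 KO label. Directions below are therefore given for libraries as labelled. The microglia and macrophage markers were all in the table (14 of 14), with summed signal of 102730 to 160980 in WT and 72268 to 121260 in libraries labelled PD-1 KO. Markers of other brain cells stood higher in the latter. The 9 astrocyte markers in the table (of 10) summed to 1270 to 3867 in WT and 11325 to 28482 with the PD-1 KO label, the 8 ependymal markers to 85.6 to 490 and 1515 to 6856, and the 11 oligodendrocyte markers to 2494 to 5688 and 6541 to 10829. No marker of these 3 lists was at the floor in all libraries of a genotype.

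Levels are comparable between genes only per length, so the signal was divided by the length of the annotated transcript in kilobases. The members had a median of 198 per kilobase, against 75.4 over all 13702 genes that could be placed in the annotation. They were also short, with a median transcript length of 1288 bases against 3059.5. Per kilobase, 48 of the 77 lay within 2-fold of their own median, and the highest stood 27.4-fold over the lowest. The highest were Mrpl33 at 775 ± 140 (SD, n = 30), Mrpl52 at 744 ± 166 and Mrpl20 at 677 ± 109, all of the large subunit. Mrpl47 (28.3 ± 4.08), Mrps35 (37.6 ± 5.46) and Mrpl1 (54.0 ± 7.15) were lowest, and their annotated transcripts are long, at 3364, 4162 and 3556 bases. A level per kilobase depends on which transcript is annotated. The median was 202 in the large and 183 in the small subunit. Members with a bacterial counterpart had a median of 203 and mitochondria-specific ones of 158, both within the interquartile range of the large subunit alone (127 to 323).

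**Figure D1:**
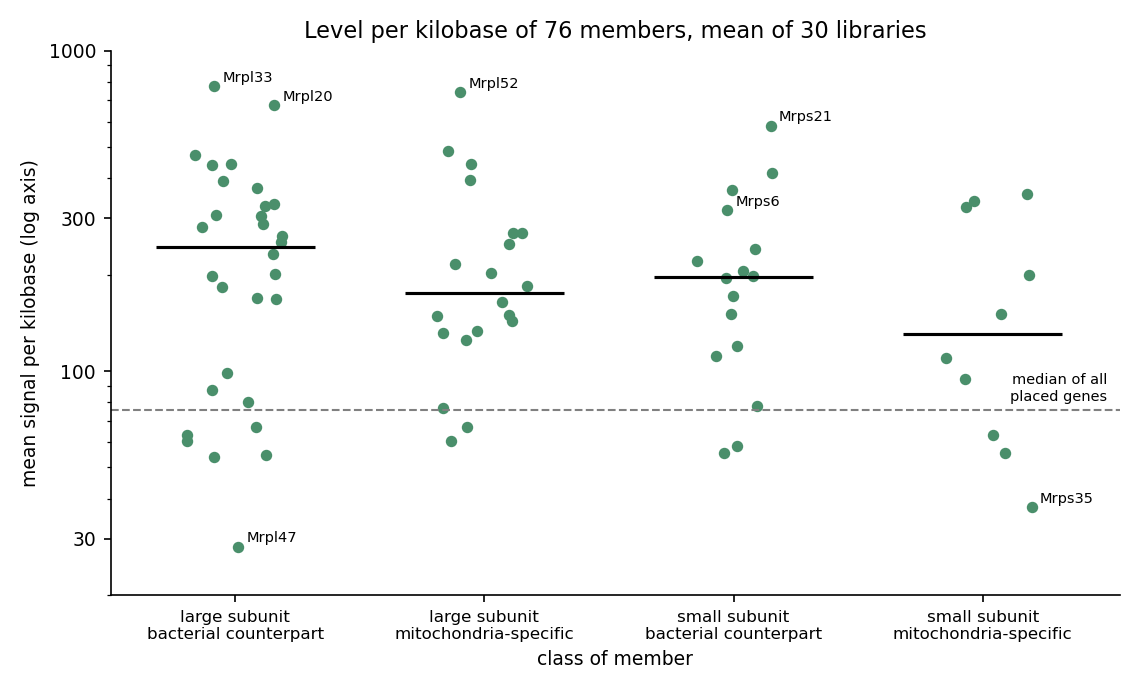
Mean signal per kilobase over 30 libraries (log axis) of 76 members, by subunit and origin; each point is a gene, the bars are class medians and the dashed line is the median of all placed genes (75.4). The 4 classes overlap over most of their range, with medians of 243 and 175 in the large and 196 and 130 in the small subunit.

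The members moved together from library to library. The correlation of a member with the median of the others, over the 30 libraries on the log2 scale, had a median of 0.70 (0.71 after group means were removed), and 65 of 77 lay above 0.5. All genes of a library share its size factor, and the values are given as a description. Mrps18a (r = 0.89), Mrpl23 (0.87), Mrpl12 (0.86), Mrpl28 (0.86) and Mrpl27 (0.86) followed the others most closely. Mrps6 (-0.25), Mrpl50 (0.07), Mrps2 (0.19), Mrpl47 (0.24) and Mrpl35 (0.32) did so least. For Mrps6 the correlation was 0.59 once group means were removed, while for Mrpl50 (0.06) and Mrps2 (0.00093) it stayed near 0. The SD within groups had a median of 0.19 on the log2 scale, against 0.20 over all genes tested. Mrps16 (0.29), Mrps24 (0.27) and Mrpl54 (0.26) varied most and Mrpl37, Mrpl9 and Mrpl3 (0.11, 0.12 and 0.12) least.

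A few WT libraries carried much of this movement. Each library's median over the 77 members, as the log2 deviation from each gene's mean, was 0.45 in replicate 2 of WT at 2 h, 0.40 in replicate 1 of WT at 2 h with amyloid-beta and 0.21 in replicate 1 of WT at 0 h. It lay between -0.18 and 0.12 in the other libraries, and 75, 74 and 73 of the 77 members were above their own mean in those 3. The cytosolic ribosomal proteins (0.74, 0.57 and 0.14) and the nuclear subunits of oxidative phosphorylation (0.56, 0.52 and 0.22) stood highest in the first and second of these libraries, while in the WT library at 0 h the cytosolic set was exceeded by several others. Short transcripts in general moved likewise. A score of the other genes with transcripts of up to 1000 bases (683) minus those of at least 4000 bases (4499) was 0.78, 0.70 and 0.30 there. Over the 30 libraries the member median correlated with this score at r = 0.96 (Spearman's rho 0.81, and r = 0.87 without the 2 farthest libraries), with the oxidative phosphorylation genes at r = 0.93 (rho 0.81, and 0.83) and with the cytosolic ribosomal proteins at r = 0.89 (rho 0.82, and 0.76). Labels give no batch within a time, and the part of transcript length in the results was tested only by the covariate given with them.

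**Figure D2:**
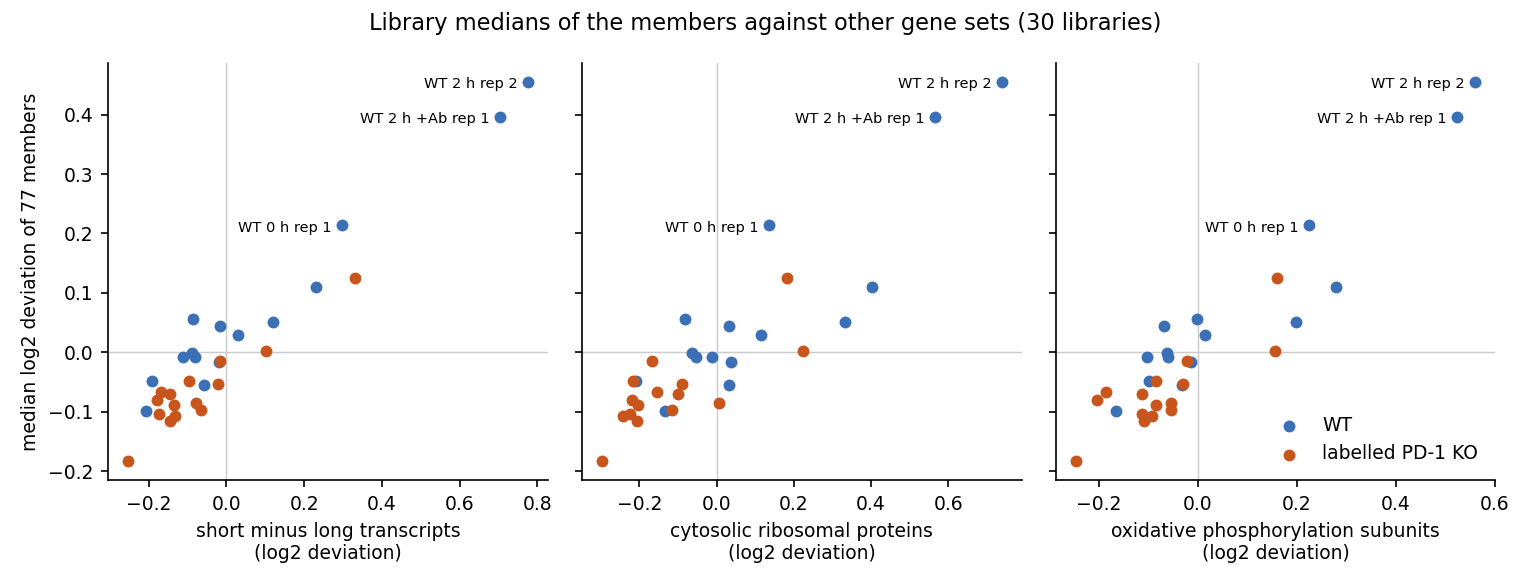
Median log2 deviation of the 77 members in each of 30 libraries (vertical) against the score of short minus long transcripts and the medians of cytosolic ribosomal protein and oxidative phosphorylation genes (horizontal, log2); blue is WT and orange is labelled PD-1 KO. The 3 named WT libraries (0.45, 0.40 and 0.21) stand highest in the members, and the first and second also in all 3 other sets.

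The main contrast that the labels set up is that of libraries labelled PD-1 KO against WT. With the 5 conditions averaged, 34 members were lower and 1, Mrps6, was higher by limma at an adjusted p under 0.05 (15 libraries against 15). The median difference of the members was -0.13 on the log2 scale, against -0.02 over all genes tested, and 69 of 77 lay below 0. This median was -0.09 without replicate 2 of WT at 2 h and replicate 1 of WT at 2 h with amyloid-beta (all genes -0.02). With the short-transcript score as covariate it was -0.06 (all genes -0.02), and with the astrocyte marker score 0.007 (all genes -0.04). With quantile normalization it was -0.24 (all genes -0.11). Over all genes, 29.1% were lower and 30.3% higher, so a call as such is common here. Both subunits were represented, with 24 of 50 large-subunit members lower and none higher, and 9 of 26 small-subunit members lower and 1 higher. Of members with a bacterial counterpart 23 of 46 were lower, and of mitochondria-specific ones 10 of 30, with Mrps18a and Mrps18b among the 10. The 12 lowest differences ran from -0.35 to -0.25. In these bulk samples fewer cells of a type and less RNA per cell cannot be told apart.

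**Figure D3:**
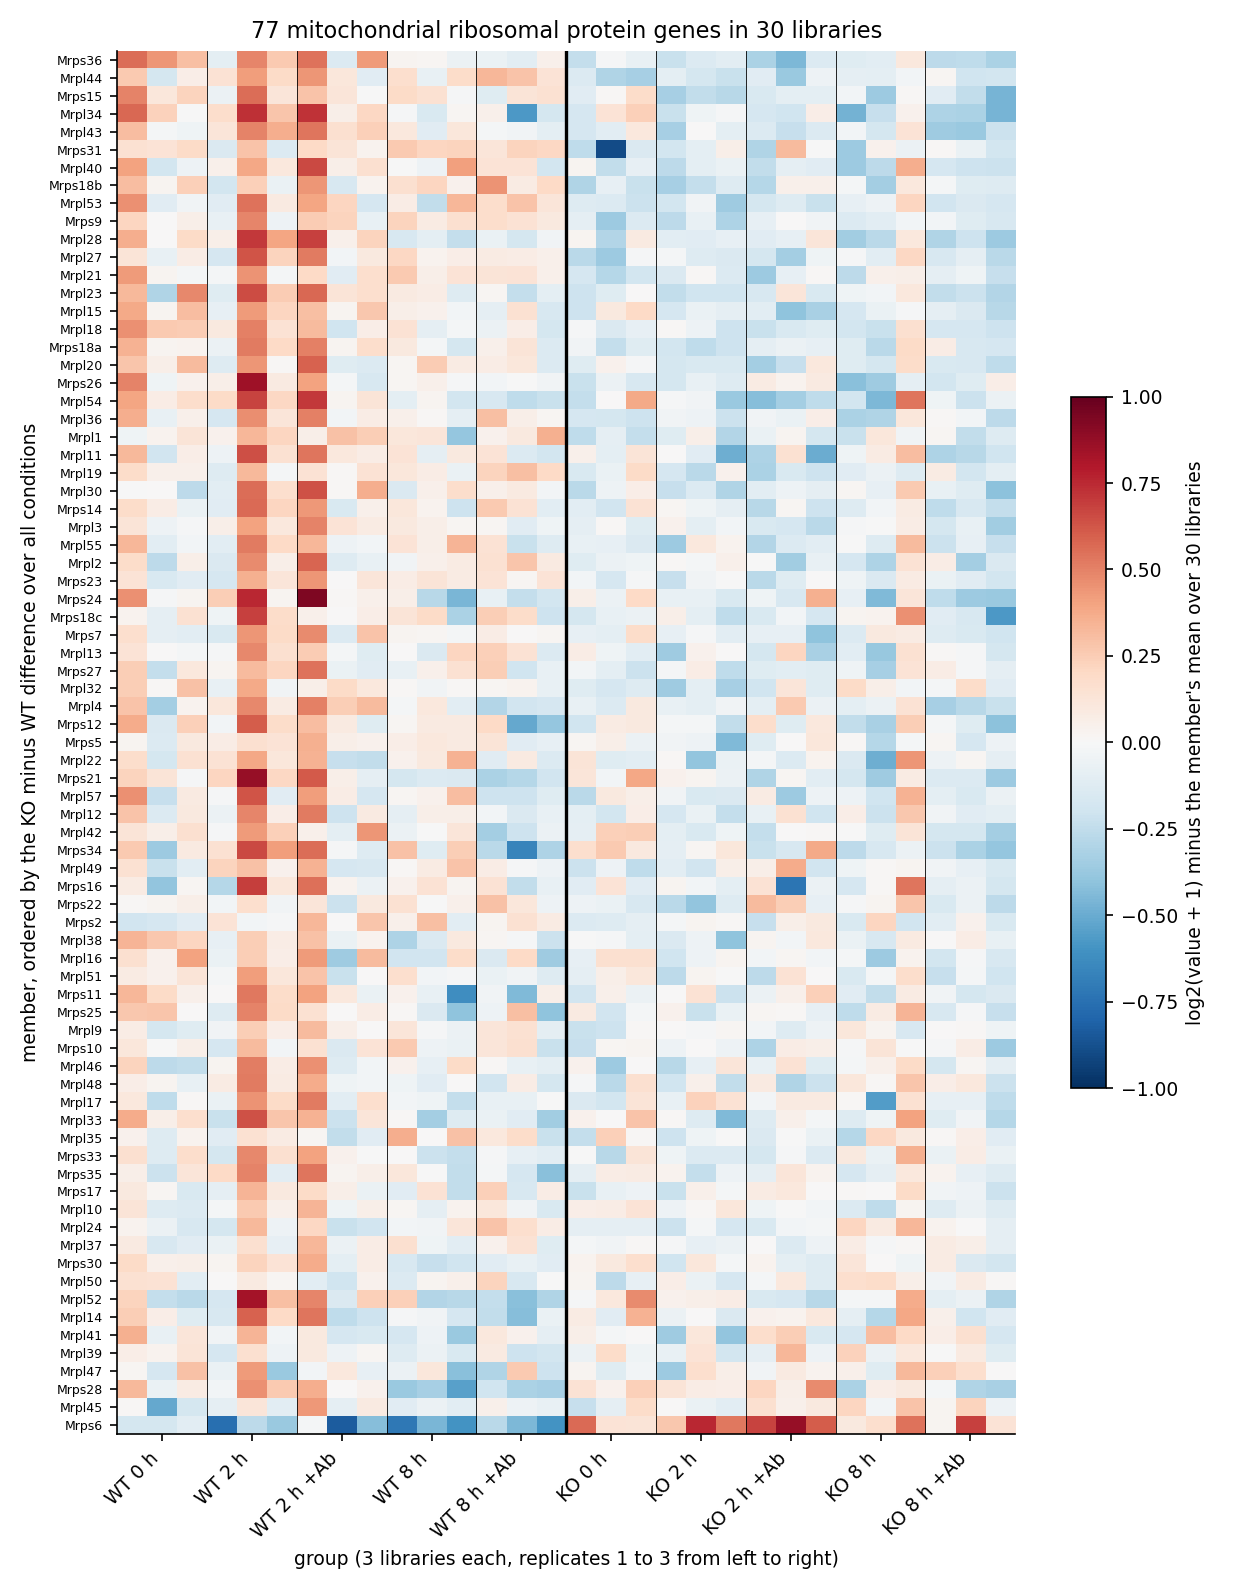
Log2(value + 1) of each member minus its mean over 30 libraries (colour, from -1 to 1), members ordered by the genotype difference over all conditions, libraries by group (+Ab is with amyloid-beta, the thick line parts WT from libraries labelled PD-1 KO). Most rows are dark red in the same WT libraries, and the bottom row, Mrps6, runs opposite to the rest (0.83 against a member median of -0.13).

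Mrps36 had the lowest difference. In WT it stood at 309, 285 and 258 at 0 h, 196, 293 and 251 at 2 h, 305, 190 and 281 at 2 h with amyloid-beta, 213, 211 and 201 at 8 h, and 199, 194 and 216 at 8 h with amyloid-beta. With the PD-1 KO label it stood at 177, 208 and 199, at 179, 190 and 194, at 167, 153 and 191, at 192, 195 and 225, and at 174, 175 and 168 in the same order. The groups were apart at 0 h, 2 h and 8 h with amyloid-beta, and overlapped at 8 h and, through 1 WT library, at 2 h with amyloid-beta. Of all genes 14.6% lay lower without overlap at 0 h, 20.3% at 2 h and 27.8% at 8 h with amyloid-beta. Over all conditions the means were 186 ± 18.1 and 240 ± 44.6 (SD, n = 15), a difference of -0.35 ± 0.06 (SE; limma adjusted p = 3.14e-05).

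Mrpl44, a large-subunit protein with an RNase III fold, was next. Its signal in WT was 278, 205 and 243 at 0 h, 257, 311 and 264 at 2 h, 315, 251 and 214 at 2 h with amyloid-beta, 260, 220 and 263 at 8 h, and 292, 282 and 255 at 8 h with amyloid-beta. With the PD-1 KO label the values were 210, 188 and 184, then 216, 205 and 199, then 214, 179 and 223, then 217, 216 and 227, and 235, 202 and 204. Libraries labelled PD-1 KO were lower on average in all 5 conditions (208 ± 16.05 against 261 ± 32.2, n = 15; -0.32 ± 0.06, limma adjusted p = 3.48e-05), without overlap at 2 h and at 8 h with amyloid-beta. In these comparisons 20.3% and 27.8% of all genes lay lower without overlap. Mrps15, the small-subunit homologue of bacterial uS15, had 348 ± 40.9 against 432 ± 58.5 (-0.31 ± 0.06, limma adjusted p = 7.03e-05). Mrpl34 (-0.28), Mrpl43 (-0.28), Mrps31 (-0.28), Mrpl40 (-0.27), Mrps18b (-0.27), Mrpl53 (-0.27), Mrps9 (-0.26), Mrpl28 (-0.26) and Mrpl27 (-0.25) followed, 6 of them from the large subunit.

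Some members have paralogs or a common place in the genome. Mrps18a, Mrps18b and Mrps18c are 3 relatives of 1 bacterial protein. Mrps18a (-0.23 ± 0.06) and Mrps18b (-0.27 ± 0.06) were lower, and Mrps18c (-0.17 ± 0.07) did not pass (limma adjusted p = 0.0543). By condition only Mrps18b at 0 h (-0.40) and Mrps18a at 2 h (-0.44) passed. The call of Mrps18b at 0 h was lost in 4 of the 6 fits that left out a library. A difference between the 3 was not tested. The members lie on 17 chromosomes, with the largest number (10) on chromosome 11, where 4 were lower: Mrpl27 (-0.25), Mrpl55 (-0.19), Mrps23 (-0.18) and Mrps7 (-0.16). Mrps24 (-0.18), Mrpl22 (-0.13), Mrpl12 (-0.12), Mrpl38 (-0.10), Mrpl10 (-0.05) and Mrpl45 (0.09) on the same chromosome did not pass. Mrpl12 is the member known to bind the mitochondrial RNA polymerase. The median on chromosome 11 was -0.15, against -0.13 for all members. By condition, Mrps7 (-0.40), Mrpl27 (-0.38) and Mrps23 (-0.32) passed at 2 h with amyloid-beta, and 0 of the 10 in the other 4 conditions. Of all genes 29.1% were lower over all conditions and 16.7% at 2 h with amyloid-beta. In the other 4 conditions 6.88% to 13.4% of all genes were lower and 13.8% to 22% higher.

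Mrps6, the small-subunit homologue of bacterial bS6, was the exception (chromosome 16, 92058270 to 92112227, GRCm38, plus strand). In WT its signal was 225, 226 and 236 at 0 h, 150, 212 and 197 at 2 h, 251, 143 and 189 at 2 h with amyloid-beta, 155, 185 and 168 at 8 h, and 211, 187 and 168 at 8 h with amyloid-beta. With the PD-1 KO label it was 378, 280 and 279, then 306, 431 and 368, then 408, 468 and 388, then 272, 287 and 372, and 259, 409 and 280. All 15 libraries labelled PD-1 KO lay above all 15 WT libraries, which held for no other member and for 7.64% of all genes tested. No member lay below in this way, against 1.36% of all genes. The means were 346 ± 68.2 and 194 ± 33.0, a difference of 0.83 ± 0.08 (limma adjusted p = 1.21e-09).

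The Mrps6 locus overlaps a neighbour. Slc5a3, which encodes the sodium and myo-inositol cotransporter of osmotic regulation, starts 52 bases away on the same strand and shares 159 exon bases with Mrps6, so reads there cannot be assigned from the gene values. Mrps6 also shares 305 exon bases on the same strand with Gm49711, which is not in the table. In WT Slc5a3 ran from 68.7 to 228 and with the PD-1 KO label from 216 to 486, a difference of 1.43 ± 0.10 (limma adjusted p = 1.48e-12). Over 30 libraries the 2 genes correlated at r = 0.84, and at 0.23 after group means were removed. Within the libraries labelled PD-1 KO, Mrps6 correlated with the astrocyte marker score at r = 0.70 (n = 15; permutation p = 0.00512, adjusted 0.0205 over 4 relations; Spearman's rho 0.73, permutation p = 0.004, adjusted 0.016; r = 0.65 without the 2 farthest libraries). With Slc5a3 the value there was r = 0.59 (n = 15; permutation p = 0.0231, adjusted 0.0462; rho 0.60, permutation p = 0.0204, adjusted 0.0408; r = 0.46 without the 2 farthest). Within WT it was r = 0.13 with the score (n = 15; permutation p = 0.636, adjusted 0.636; rho 0.13, permutation p = 0.647, adjusted 0.647; r = 0.03 without the 2 farthest) and r = 0.19 with Slc5a3 (n = 15; permutation p = 0.494, adjusted 0.636; rho 0.24, permutation p = 0.392, adjusted 0.523; r = 0.23 without the 2 farthest). These values within a genotype pool 5 conditions without removing group means. Differences between conditions and between libraries of a condition cannot be told apart in them. The difference between the genotypes in these correlations was not tested.

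**Figure D4:**
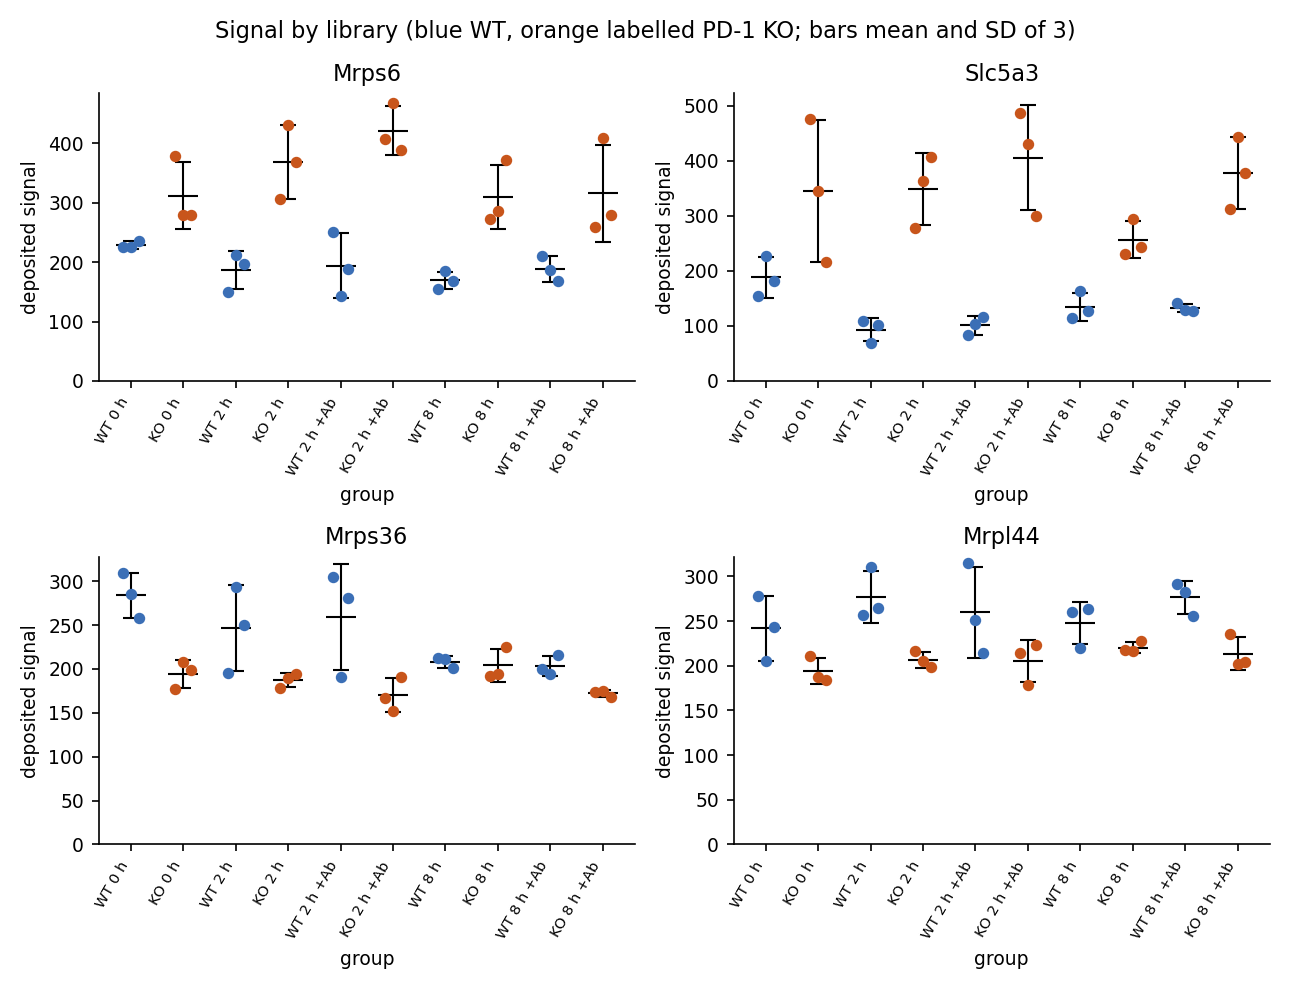
Signal of Mrps6, its neighbour Slc5a3, Mrps36 and Mrpl44 in each library by group (linear axes from 0); points are libraries, bars the mean and SD of 3, blue WT and orange labelled PD-1 KO. Mrps6 runs from 143 to 251 in WT and from 259 to 468 with the PD-1 KO label, and Mrps36 and Mrpl44 are lower with that label on average.

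By condition, 3 libraries against 3, the member medians ran from -0.28 at 2 h to -0.02 at 8 h. This order did not hold without replicate 2 of WT at 2 h, where the 2 h median was -0.13 against -0.20 at 2 h with amyloid-beta, nor with the short-transcript score, where 0 h had the lowest median (-0.08). At 0 h 4 were lower, against 6.88% of all genes, and 0 higher (13.8% of all genes), with a median of -0.12. They were Mrps31 (-0.60 ± 0.17), Mrps36 (-0.54 ± 0.14), Mrpl18 (-0.40 ± 0.13) and Mrps18b (-0.40 ± 0.14). Of the 6 fits that left out a library, Mrps36 kept its call in all, Mrpl18 lost it in 3 and Mrps18b in 4. Mrps18b also did not pass with voom. Mrps31, with 118, 75.4 and 128 against 157, 156 and 162 in WT, lost its call in 1 of these fits. Without replicate 2 of the PD-1 KO group its difference was -0.36 and did not pass. The count was 2 without that library, without replicate 1 of WT or without replicate 3 of the PD-1 KO group (17.7%, 17% and 20.6% of all genes). Without replicate 2 of WT it was 7 (18.8% of all genes). The median was -0.04 without replicate 1 and -0.19 without replicate 2 of WT. At 2 h 14 were lower (13.4% of all genes) and Mrps6 higher (18.8% of all genes), with a median of -0.28 against 0.01 over all genes and 76 of 77 members below 0. Mrps15 (-0.49 ± 0.14), Mrpl28 (-0.49 ± 0.15), Mrpl34 (-0.48 ± 0.18), Mrpl23 (-0.48 ± 0.16), Mrpl43 (-0.47 ± 0.12) and Mrps26 (-0.46 ± 0.16) had the largest differences that passed. Of the 6 fits at 2 h that left out a library, Mrpl43 kept its call in all. Mrps15 and Mrpl28 kept theirs in 5 and lost them without replicate 2 of WT. Mrps26 kept its call in 2 of these fits, and Mrpl34 and Mrpl23 in 1.

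The counts and medians at 2 h depended on single libraries. Without replicate 2 of WT at 2 h, the library highest in short transcripts, 1 member was lower and Mrps6 higher, with a median of -0.13. Of all genes 21.9% passed in that fit, against 32.2% with all libraries. With the short-transcript score as covariate 0 were lower and 1 was higher (26.2% of all genes), with a median of -0.04. Other libraries moved the count as well: it was 33 without replicate 1 of WT (34.4% of all genes, median -0.39). Without replicates 1 and 3 of the PD-1 KO group it was 9 and 5 (30% and 24.8% of all genes). The cytosolic ribosomal proteins (76 of 83 lower, 0 higher, median -0.59) and the oxidative phosphorylation subunits (38 of 80 lower, 0 higher, median -0.35) were lower in the same comparison.

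At 2 h with amyloid-beta 14 members were lower (16.7% of all genes) and Mrps6 higher (22.2% of all genes), with a median of -0.20 against 0.02. Mrpl54 (-0.63 ± 0.19), Mrps36 (-0.58 ± 0.14), Mrpl43 (-0.48 ± 0.12), Mrpl15 (-0.48 ± 0.13), Mrpl11 (-0.45 ± 0.18) and Mrpl40 (-0.44 ± 0.18) led. Without replicate 1 of WT at 2 h with amyloid-beta the count of calls fell from 15 (38.9% of all genes) to 5 (31.8%), and the median was -0.07. Without replicate 1 of the PD-1 KO group the count was 7 (31.8% of all genes). With the short-transcript score it was 6 (36.9% of all genes), of which 2 were higher, with a median of -0.03. Mrps36, Mrpl43 and Mrpl15 kept their calls in each of these fits.

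At 8 h the member median was near that of all genes (-0.01). Mrps6 was higher (18% of all genes) and 0 were lower (9.01% of all genes), with a median of -0.02 and 43 of 77 below 0. Without replicate 1 of the PD-1 KO group 3 were higher, while 24.7% of all genes passed in either direction. The 8 h median ran from -0.11 (without replicate 3 of the PD-1 KO group) to 0.02 (without its replicate 2) when a library was left out. At 8 h with amyloid-beta Mrps6 was higher (22% of all genes) and Mrpl44 (-0.37 ± 0.13) and Mrpl19 (-0.30 ± 0.11) were lower (11.7% of all genes), with a median of -0.09 (-0.14 without replicate 3 of WT). Mrpl44 did not pass without replicate 1 or 2 of WT or replicate 2 or 3 of the PD-1 KO group (-0.36 to -0.33), and Mrpl19 passed only without replicate 1 of the PD-1 KO group among the 6 fits that left out a library. The call of Mrps6 there was lost without replicate 2 of the PD-1 KO group, at 0.52, where 0 members passed (24.6% of all genes). Without replicate 3 of that group only Mrps6 passed (29.4% of all genes). The difference of Mrps6 was 0.43 ± 0.19 at 0 h (limma adjusted p = 0.104), 0.98 ± 0.19 at 2 h, 1.15 ± 0.19 at 2 h with amyloid-beta, 0.86 ± 0.19 at 8 h and 0.72 ± 0.19 at 8 h with amyloid-beta.

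**Figure D5:**
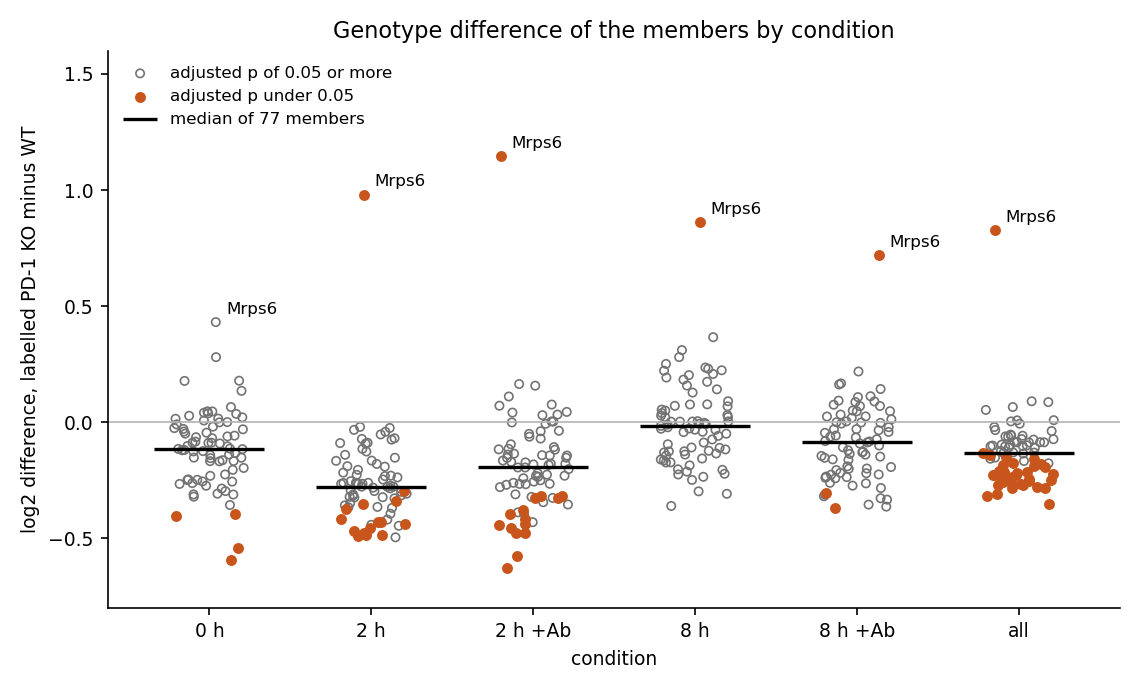
Log2 difference between libraries labelled PD-1 KO and WT for each of the 77 members (points) in 5 conditions and over all of them; filled points passed the threshold, and the bar is the median. The medians are -0.12, -0.28, -0.20, -0.02, -0.09 and -0.13 from left to right, and Mrps6 is the highest point in each column.

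Tests of whether the genotype difference itself changed with time passed for 0 members. From 0 h to 2 h, limma found 0 of 77, with 5 at an unadjusted p under 0.05 and 0 by voom (0.736% of all genes passed), and from 0 h to 8 h 0, with 4 unadjusted and 0 by voom (0.27%). The largest were Mrps34 (-0.57 ± 0.26, limma adjusted p = 0.344) and Mrps36 (0.51 ± 0.20, limma adjusted p = 0.365). The shares of all genes given here are at the adjusted threshold. At an unadjusted p under 0.05 by limma there were 1807 of 13722 genes from 0 h to 2 h. From 0 h to 8 h there were 1427.

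Other genes that serve the mitochondrial ribosome were examined by lists. Over all conditions, 10 of 15 translation factors were lower and 0 higher, with a median of -0.19. Among them were Mtfmt (-0.31 ± 0.08), which formylates the initiator tRNA, and Slirp (-0.29 ± 0.07), a stabiliser of mitochondrial messenger RNA. Assembly factors were lower in 9 of 25 and higher in 1 (median -0.11), with the GTPase Mtg1 at -0.35 ± 0.08, the rRNA chaperone Eral1 at -0.34 ± 0.08 and the methyltransferase Mettl15 at 0.43 ± 0.14. Mitochondrial aminoacyl-tRNA synthetases were lower in 5 of 17 and higher in 1 (median -0.02), with Sars2 at -0.53 ± 0.09. Ribosome subunits under other symbols were lower in 2 of 6, Aurkaip1 (-0.22 ± 0.07) and Ptcd3 (-0.12 ± 0.05), and higher in 0 (median -0.08).

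Regulators of mitochondrial genes were lower in 6 of 13 and higher in 1 (median -0.11). Nrf1 (-0.24 ± 0.06) and Esrra (-0.22 ± 0.06) were lower and the coactivator Ppargc1a was higher (1.17 ± 0.15). Of the cytosolic ribosomal proteins 75 of 83 were lower and 1 was higher (median -0.24), and of the oxidative phosphorylation subunits 42 of 80 were lower and 2 higher (median -0.16). All of these stand beside 29.1% lower and 30.3% higher over all genes, and beside the higher astrocyte markers, of which 9 of 9 passed (median 2.70).

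The astrocyte marker sums of the genotypes did not overlap, so its part and that of the genotype cannot be told apart in this design. With the astrocyte score as covariate 0 members passed in any of the 6 genotype comparisons, while 0.926% of all genes passed over all conditions. Mrps6 then stood at -0.03 over all conditions.

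Amyloid-beta was compared with none to ask for a response to it. The shares of all genes given here are at the adjusted threshold. At an unadjusted p under 0.05 by limma, 681 of 13722 genes lay at 2 h in WT and 615 with the PD-1 KO label. At 8 h there were 1905 in WT and 1036 with that label. For the genotype difference of the amyloid-beta effect there were 663 at 2 h and 810 at 8 h. At 2 h in WT 0 members passed by limma (0 at an unadjusted p under 0.05 and 0 by voom; 0% of all genes), with a median of -0.02. At 2 h with the PD-1 KO label 0 passed (1 unadjusted, Mrps22 at 0.42 ± 0.13, and 0 by voom; 0% of all genes), with a median of 0.03. At 8 h in WT 0 passed (1 unadjusted, Mrps34 at -0.55 ± 0.18, limma adjusted p = 0.118, and 0 by voom; 2.18% of all genes), with a median of -0.03. At 8 h with the PD-1 KO label 65 of 77 lay below 0, with a median of -0.10 against 0.02 over all genes, but 0 passed (5 unadjusted and 0 by voom; 0.0583% of all genes). With the short-transcript score this median was 0.01, and it was -0.04 without replicate 3 at 8 h, -0.17 without replicate 2 at 8 h and -0.06 without replicate 3 at 8 h with amyloid-beta. The lowest by p there was Mrps18c at -0.46 ± 0.17 (limma adjusted p = 0.431). Cytosolic ribosomal proteins had a median of -0.20 and the oxidative phosphorylation subunits of -0.13 in the same libraries. The genotype difference of the amyloid-beta effect passed for 0 members at 2 h (2 unadjusted and 0 by voom; 0.051% of all genes) and for 0 at 8 h (2 unadjusted and 0 by voom; 0% of all genes).

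The times were compared without amyloid-beta. The 8 h libraries carry a separate run of numbers in their titles, so a difference from 0 h cannot be told apart from that. The shares of all genes that passed are at the adjusted threshold. At 2 h, 2649 of 13722 genes in WT and 1195 with the PD-1 KO label had an unadjusted limma p under 0.05. At 8 h with that label there were 2066. From 0 h to 2 h, 0 members passed in WT (2 unadjusted and 0 by voom; 4.75% of all genes; 1 higher without replicate 1 of WT at 2 h) and 0 with the PD-1 KO label (2 unadjusted and 0 by voom; 0.634% of all genes). From 0 h to 8 h, 2 were lower in WT (6.05% of all genes). Mrps28 fell from 189, 144 and 159 to 116, 119 and 103 (-0.53 ± 0.15, limma adjusted p = 0.0308), and Mrpl38 from 359, 342 and 329 to 229, 257 and 303 (-0.39 ± 0.12, limma adjusted p = 0.0457). In both the groups did not overlap, which held in this direction for 12 of the 77 members and 13.5% of all genes. Leaving out any 1 of these 6 libraries left 0 or 1 call (2.89% to 5.05% of all genes): 0 without replicate 1 or 3 of 0 h or replicate 1 of 8 h, and 1 without any of the others. With the PD-1 KO label 0 passed at 8 h (3 unadjusted and 0 by voom; 3.29% of all genes), where Mrps28 had gone from 166, 155 and 177 to 120, 157 and 161.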

How the data were processed

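Total RNA from primary microglial cultures was sequenced in 30 libraries. Per the submitters' processing notes, HISAT 0.1.5, Partek 6.6, R 3.0.2, DESeq2 and the mm10 build were used; the counter, its strand setting and the annotation are not given in the sources used here. The deposited signal, judged from its values, is a count of reads per gene that the authors scaled by 1 size factor for each library, with everything below 1 set to 1. Dividing by each library's smallest step gave whole reads, within 0.05, for all values of up to 5000 reads.

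Values were analysed as log2(value + 1). Genes at 10 or more in at least 3 libraries (13722) were fitted with 1 mean per group (limma 3.58.1 with trend, R 4.3.3, 20 residual degrees of freedom, Benjamini-Hochberg adjustment over all genes in each of 18 comparisons, threshold 0.05). Fold changes on this scale understate those of low genes. The steps were checked on simulated counts. These held no shift shared by the genes of a library, so the check does not cover such shifts. Replicates differed by more than sampling noise. Transcript lengths and positions came from GENCODE M21 (GRCm38), which placed 99.4% of genes, 414 through an older symbol. Correlations were tested with two-sided permutations (100000 resamples for Pearson's r, 10000 for Spearman's rho). Figures used matplotlib 3.10.9.

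Members were taken by symbol. They, the gene lists and the 4 added alternatives (voom weights on read counts recovered this way, a fit without replicate 2 of WT at 2 h and replicate 1 of WT at 2 h with amyloid-beta, and covariates for short transcripts and for astrocyte markers) were chosen with earlier results of these data known. The text names the members with the largest differences past the threshold (up to 12 per direction over all conditions, up to 6 elsewhere), the Mrps18 paralogs, members on chromosome 11, Mrpl12, the extremes of level, spread and correlation, and up to 3 genes per list. Mrps34 and Mrps22 were named after their values were seen. Protein sequences were not used here. Of 11 markers of neutrophils, lymphocytes and red cells, 0 were in the table.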

Additional observations from a re-analysis of the deposited data

How the results depend on the processing

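The alternatives were a pseudocount of 10, no low-value filter, quantile normalization, TMM factors, only the groups compared, leaving out each library, and the 4 chosen after seeing the data. The edgeR test was not run, because the floor hides low counts. No paired analysis was possible because replicate numbers were given in accession order. Recovered depth ranged from 4227019 to 48509985 reads, and all members were above the floor in every library.

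Percentages in brackets below are the share of all genes called in the same fit. Over all conditions the 35 calls (59.5%) were 61 with quantile normalization (69.4%), of which 60 were lower. The median of all genes was then -0.11. There were 39 with TMM factors (60.8%) and 27 with the short-transcript score (60.2%), of which 5 were higher. Without the pair of WT libraries there were 28 (59.4%), and without 1 library 30 to 40. The 12 lower members and Mrps6 that are named for this comparison kept their calls in each of these and with voom.

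The astrocyte score gave 0 calls in all 6 genotype comparisons, where 0.394% to 3.4% of all genes passed. It turned the sign over all conditions of Mrps15 (0.012), Mrpl34 (0.078), Mrps18b (0.0318), Mrpl53 (0.0127), Mrpl27 (0.11) and Mrps6 (-0.0322), of Mrpl54 (0.0089) at 2 h with amyloid-beta, and of Mrpl44 (0.0227), Mrpl19 (0.16) and Mrps6 (-0.38) at 8 h with amyloid-beta; the cause was not tested.

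At 0 h the 4 calls (20.7%) were 9 with quantile normalization (21.5%), 10 with the short-transcript score (26.1%) and 2 to 7 without 1 library. At 2 h the 15 calls (32.2%) were 39 with quantile normalization (36%), 29 with voom (38.5%) and 2 without the pair (24.8%). They were 1 with the short-transcript score (26.2%), 8 with only the groups compared (29.9%) and 2 to 33 without 1 library. At 2 h with amyloid-beta the 15 calls (38.9%) were 35 with quantile normalization (41.6%) and 6 without the pair (33.2%). They were 6 with the short-transcript score (36.9%), 6 with only the groups compared (26.8%) and 5 to 21 without 1 library. At 8 h the 1 call (27%) was 3 with quantile normalization (29%), 7 with the short-transcript score (34%) and 1 to 3 without 1 library. At 8 h with amyloid-beta the 3 calls (33.7%) were 13 with quantile normalization (38.4%) and 6 with voom (39.7%). They were 7 with the short-transcript score (40.4%), 11 with only the groups compared (43.9%) and 0 to 4 without 1 library. The cause of these moves was not tested. For 8 h against 0 h in WT, the 2 calls (6.05%) were 0 with quantile normalization (5.12%), 1 with TMM factors (5.78%) and 1 with voom (3.28%). They were 6 with the short-transcript score (10.3%), 0 with only the groups compared (3.21%) and 0 to 1 without 1 library.

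Where 0 members passed, the short-transcript score gave 1 call for amyloid-beta in WT at 8 h (4.34%). It gave 1 for 2 h against 0 h in WT (5.25%) and 3 for 8 h against 0 h with the PD-1 KO label (6.09%). Leaving out 1 library gave 0 to 1 for 2 h against 0 h in WT. The others stayed at 0 in every alternative run. Of 844 refits of 37 single values, 728 kept direction and call, 106 lost the call and 10 changed sign.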

Other observations

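The exons of 32 members share bases with another annotated gene, 20 of them with a gene of the table and 3 of those on the same strand: Mrps6 with Slc5a3, Mrps24 with Urgcp, and Mrps34 with Nme3. The library kit and the counting do not state a strand, so for the others too reads of the shared bases cannot be told apart. Mrps25 shares the most bases, 4590 (69.8% of its exon bases), with Nr2c2 on the opposite strand. Mrps34 shares 1309 (63.4%) with Mapk8ip3 on the opposite strand and 763 with Nme3. Mrpl53 shares the largest part of its exon bases, 88% (695 bases), with Gm42688 on the same strand, which is not in the table.

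Some members sit head to head with another gene of mitochondria. Mrpl46 and Mrps11, which belong to different subunits, lie on opposite strands with annotated gene starts 412 bases apart, overlap there by 173 exon bases and correlated at r = 0.25 over the 30 libraries (0.19 after group means were removed). Mrpl47 and Ndufb5, a subunit of respiratory complex I, have gene starts 615 bases apart, also overlapping, and correlated at 0.31 (0.34). Mrpl36 and Ndufs6, another subunit of complex I, have gene starts 29 bases apart, share 30 exon bases and correlated at 0.67 (0.86). The pairs are few and were chosen for their position. The members' own median correlation of 0.70 was with the median of the other members. It is therefore not the same measure as a correlation between single genes.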
